A study of Mus musculus with 24 samples.

Results

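The late step of the culture, from day 22 (D22) to day 30 (D30), was examined in mouse retinal organoids (MROs), with 6 organoids at D22 and 6 at D30, so 12 of the 24 organoids of the series. The members were taken from the timepoint in the sample labels alone, and all annotated genes of the count files entered the comparison: 46603 genes were annotated, and 16253 of them passed the filter on low counts and were tested. All groups are wild-type E14Tg2a mouse embryonic stem cells grown into retinal organoids by the trisection protocol, in which an early organoid is cut into pieces that regrow. All received water as solvent and no agent other than those of the protocol. In the paper that protocol includes a synthetic retinoid analog, added to the culture for some days before these timepoints. Each sample is the total RNA of an individual organoid, and the organoids come from 1 independent experiment with 1 cell line. The spread between samples is thus that between sister organoids and not between differentiations. The question put to these timepoints was how the organoids mature once the birth of neurons has ended.

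By D22 most retinal cells of such an organoid have been born, and what follows in the retina of a mouse pup is maturation: rods build an outer segment, a stack of membrane discs filled with the light cascade, and a ribbon synapse onto bipolar cells. Müller glia, the radial glia of the retina, are the last cells to be born together with bipolar cells and late rods, and they take up potassium channels, water channels and glutamate transporters as they mature. Under stress Müller glia turn reactive and fill with the filament protein encoded by Gfap. There is no blood supply and no optic nerve in an organoid, and ganglion cells are lost from retinal cultures in which their axons find no target.

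The D30 libraries were deeper than those of D22, with 15814895 to 19477108 counted reads against 13942695 to 15789570, and the share of reads on no feature, among those with 1 alignment, was lower, at 37.5 to 43.91% against 44.64 to 48.95%, with no overlap in either measure. Levels below are read counts scaled to library size with TMM factors (CPM). In these 12 libraries 3 reads are worth 0.154 to 0.215 CPM. Organoid pairs within a timepoint had a chi-square per degree of freedom of 9.24 to 20.4 at D22 and 11.7 to 47.6 at D30. Counting error alone would give values near 1. Each value pools many features, so how counting error compares with the spread between organoids was not tested for single genes. Fold changes are log2 values of D30 minus D22 with their standard error from edgeR's quasi-likelihood fit, a call is a Benjamini-Hochberg adjusted p below 0.01 over all 46949 features tested, and CPM levels are not scaled for transcript length, so they are compared between organoids and not between genes.

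D30 organoids had higher levels of 3893 annotated genes than D22 organoids and lower levels of 1877, which is 24% and 11.5% of the 16253 genes tested. Of the genes that rose, 2101 changed by more than 1 on the log2 scale and 237 by more than 4, and of those that fell 793 and 20 did so. Over all annotated genes tested, the median change was 0.14 (log2), in a fit whose scaling also used 30696 loci that the authors assembled from the reads. When annotated genes alone were scaled and tested, the median was near 0 and the split became 3191 higher and 2980 lower, or 19.6% and 18.3%. Calls of small changes thus depend on the scaling. The second value is given for some of the lists and genes that moved with it, so those without one may have moved too. Of the 208 named genes, 7 lost their call with annotated genes alone. Counts within gene lists below are to be read beside the 24% and 11.5% of all genes. The 6 organoids of D22 and the 6 of D30 did not overlap for 3649 tested genes, 22.5% of them.

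Among genes with at least 100 normalized counts on average and no overlap between timepoints, the 10 largest rises were those of Gnat1, 5430419D17Rik, Slc39a12, Gucy2f, Ddn, Gfap, Mt3, Mlc1, Grin2a and Acsbg1, with log2 changes from 8.51 to 5.94. Gnat1 and Gucy2f serve light detection in photoreceptors, Gfap and Mlc1 are proteins of glia, Slc39a12 carries zinc, Mt3 binds metals, and Ddn and Grin2a belong to the postsynaptic side of synapses. The 10 largest falls were those of Mybpc1, Epha8, Sncg, Arhgef37, Slc6a2, Ccdc60, Gm4792, Cyp26b1, Mybl1 and Myh7b, with log2 changes from -6.85 to -3.03. Mybpc1 and Myh7b encode proteins of muscle filaments, Epha8 is a receptor for ephrins, Cyp26b1 degrades retinoic acid, Slc6a2 takes up noradrenaline and Sncg marks ganglion cells.

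Mybpc1 (chromosome 10, 88518279 to 88605152, GRCm38, minus strand) was counted 59 to 525 times in every D22 organoid and 0 to 9 times at D30, with 0 reads in 4 of the 6 organoids. Epha8 levels were 90.1 to 127 CPM at D22 and 3.36 to 7.38 CPM around 4.12 at D30. Cyp26b1 fell from 122 to 220 CPM, median 158, to 6.6 to 26.2 CPM, median 17.6, a log2 change of -3.35 ± 0.24 with an adjusted p of 8.55e-12. For each of these genes every D30 organoid lay below every D22 organoid, which the rule that picked them required. Mybl1, a transcription factor of the Myb family, went from 200 to 405 CPM to 33.6 to 47 CPM (log2 -3.07 ± 0.15, adjusted p = 4.31e-15). On the rising side 5430419D17Rik had 0 to 0.732 CPM at D22 and 24.3 to 56.6 CPM at D30, and Acsbg1, an acyl-CoA synthetase, went from 0 to 1.46 CPM to 1.61 to 65.6 CPM.

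Rods detect light through a cascade in which transducin, whose rod alpha subunit is encoded by Gnat1, activates a phosphodiesterase made from Pde6a and Pde6b, and in which arrestin (Sag) and recoverin (Rcvrn) shape the recovery. In the list of 23 rod phototransduction genes 22 were tested, 22 rose and 0 fell (20 rose with annotated genes alone). This is 100% higher beside 24% of all genes, with a median log2 change of 2.58 beside 0.14 for all annotated genes tested. Gnat1 (chromosome 9, 107674474 to 107679712, GRCm38, minus strand) was at 0.0613 to 2.53 CPM, median 0.45, at D22 and at 200 to 323 CPM, median 273, at D30. This is a change from 1 to 38 reads per organoid to 3495 to 5570 reads, and the fitted log2 change was 8.51 ± 0.41 (adjusted p = 2.38e-15). Gucy2f, a guanylate cyclase that restores cGMP in photoreceptors, went from 0.0719 to 0.907 CPM to 29.6 to 73.8 CPM, a log2 change of 6.78 ± 0.39.

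Subunits of the same rod enzyme had unequal fitted changes, a difference that was not tested. Pde6a rose from 2.01 to 7.77 CPM, median 5.92, to 218 to 422 CPM, median 314 (log2 5.85 ± 0.26, adjusted p = 8.32e-16). Its partner Pde6b was already at 418 to 963 CPM, median 599, at D22 and reached 644 to 1280 CPM, median 1100, at D30, with overlapping organoids and a log2 change of 0.67 ± 0.16 (adjusted p = 0.00191). With annotated genes alone the change of Pde6b was 0.55 and its call was lost (adjusted p = 0.0144). Rcvrn rose from 13.9 to 51.2 CPM, median 18.6, to 310 to 580 CPM, median 535, and Sag from 682 to 2240 CPM, median 889, to 3210 to 7630 CPM, median 4300, with fitted folds of 19 and 3.8, which rest on group means and not on these medians. The summed level of the list was 4790 to 9740 CPM in D22 organoids and 13300 to 25500 CPM in D30 organoids. In bulk RNA of an organoid, more rods and more RNA of these genes per rod cannot be told apart.

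**Figure D1:**
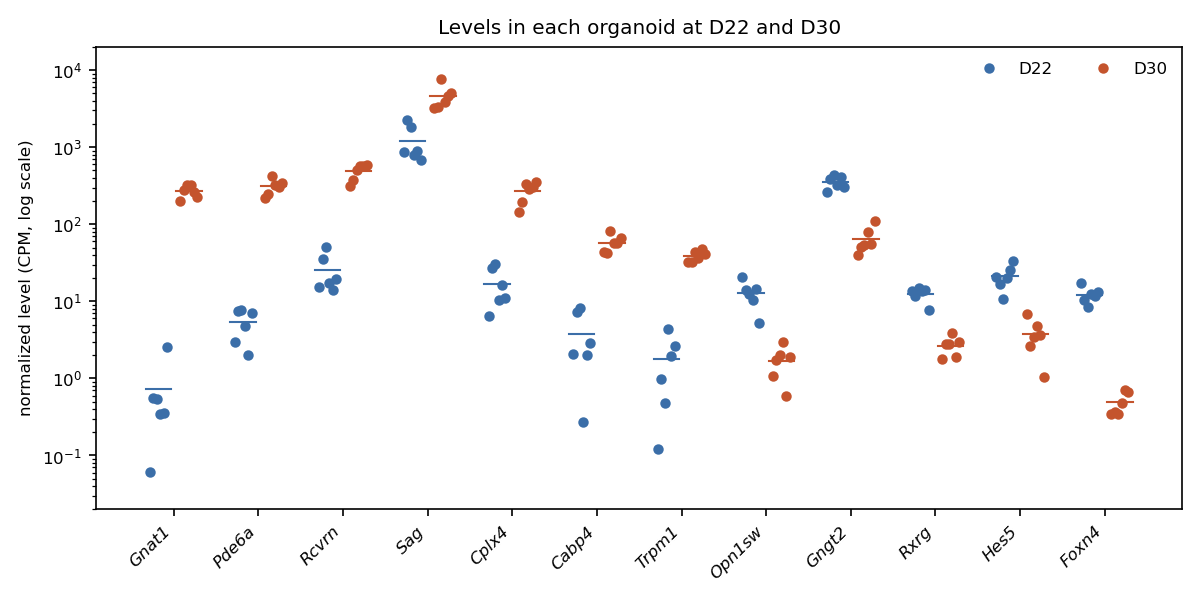
Normalized levels of 12 genes in each organoid (CPM, log axis); each dot is 1 of 6 D22 (blue) or 6 D30 (orange) organoids and the line is the mean. Gnat1 reaches at most 2.53 CPM at D22 and lies between 200 and 323 CPM at D30, while Opn1sw, Gngt2, Rxrg, Hes5 and Foxn4 are lower at D30 with no overlap.

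The start regions of 4 of the genes that rose are shown because they carry the short motifs of factors that switch on photoreceptor genes. Other risers, among them Prph2, Scgn, Gfap and Esrrb, had 0 matches in their window. Crx binds TAATCC and the element bound by Nrl contains TGCTGA. Both were searched on both strands (as GGATTA and TCAGCA on the other strand), they do not overlap, and matches are in capitals within the 300 bases from 250 before to 50 after the start, in the direction of the gene. Sequences are from RefSeq (GRCm38.p6), at chrX:142196887-142197186 (minus strand) for Gucy2f, chr1:87803430-87803729 (plus) for Sag, chr5:108388123-108388422 (plus) for Pde6b and chr7:64153585-64153884 (plus) for Trpm1, the channel of bipolar cells described further on.
Gucy2f: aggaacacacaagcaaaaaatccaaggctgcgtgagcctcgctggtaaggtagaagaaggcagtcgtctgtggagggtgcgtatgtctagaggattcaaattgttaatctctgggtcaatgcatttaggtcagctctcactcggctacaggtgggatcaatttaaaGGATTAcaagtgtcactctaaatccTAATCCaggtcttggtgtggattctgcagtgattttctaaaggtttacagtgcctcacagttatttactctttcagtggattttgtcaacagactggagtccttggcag
Sag: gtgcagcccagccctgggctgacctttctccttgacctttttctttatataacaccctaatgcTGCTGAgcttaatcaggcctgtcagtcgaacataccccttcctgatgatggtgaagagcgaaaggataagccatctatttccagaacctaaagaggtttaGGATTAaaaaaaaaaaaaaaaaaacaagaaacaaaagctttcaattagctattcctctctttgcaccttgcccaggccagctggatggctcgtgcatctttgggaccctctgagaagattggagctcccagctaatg
Pde6b: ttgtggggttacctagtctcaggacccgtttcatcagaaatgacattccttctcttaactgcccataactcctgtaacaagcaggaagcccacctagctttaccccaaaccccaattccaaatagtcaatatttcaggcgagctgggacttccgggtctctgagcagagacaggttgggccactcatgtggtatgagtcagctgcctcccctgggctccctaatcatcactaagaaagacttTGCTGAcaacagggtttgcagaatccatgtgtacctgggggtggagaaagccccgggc
Trpm1: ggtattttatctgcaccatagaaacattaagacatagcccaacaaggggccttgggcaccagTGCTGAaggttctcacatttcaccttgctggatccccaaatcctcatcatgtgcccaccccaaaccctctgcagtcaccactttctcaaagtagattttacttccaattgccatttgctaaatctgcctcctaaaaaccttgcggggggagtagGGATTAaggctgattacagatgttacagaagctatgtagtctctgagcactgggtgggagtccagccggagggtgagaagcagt

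Gucy2f held 2 TAATCC matches, Sag and Trpm1 had 1 of each motif, and Pde6b had TGCTGA alone. Over 19211 annotated genes with a RefSeq window, 6.84% held TAATCC and 18.2% held TGCTGA. Of 15 rod phototransduction genes with a window 8 held TAATCC and 5 held TGCTGA, and of 20 outer segment genes 5 and 6. The ribbon synapse list had 3 and 2 of 15, the bipolar list 3 and 5 of 20, the progenitor list, most of which fell, 1 and 3 of 20, and the Müller glia list 2 and 7 of 18, so TGCTGA was found in a larger share of Müller glia genes (38.9%) than of rod genes (33.3%). The windows of all genes that rose held TAATCC in 6% and TGCTGA in 16.6%, those of genes that fell in 5.27% and 13%, and those of genes not called in 5.65% and 14.4%. These matches are descriptions of letters in a window, and no binding was measured.

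Cones use sister genes of the same cascade. Of 12 listed cone genes 10 were tested, 3 rose and 3 fell, with a median log2 change of 0.61, or 30% in each direction beside 24% higher and 11.5% lower over all genes, so the share of risers was near that of all genes. Opn1sw, the short-wave opsin of cones, fell from 5.26 to 20.8 CPM, median 13.2, to 0.587 to 2.96 CPM, median 1.8 (log2 -2.91 ± 0.34, adjusted p = 8.39e-08). Gngt2, the gamma subunit of cone transducin, fell from 265 to 433 CPM, median 351, to 39.5 to 109 CPM, median 55.1 (log2 -2.45 ± 0.21). In both, no D30 organoid reached the lowest D22 organoid. Pde6c, the cone phosphodiesterase, went from 27.8 to 42 CPM to 12.5 to 31.4 CPM (log2 -0.73 ± 0.18, adjusted p = 0.00181) with overlap between the timepoints. On the other side, Slc24a2, the calcium exchanger of cones, rose from 1.66 to 8.58 CPM to 16.5 to 65.7 CPM (log2 3.20 ± 0.41), although neurons of other kinds express it too, and Kcnv2, a potassium channel subunit shared by rods and cones, rose 2.14 times. Gnat2, the cone form of transducin alpha, rose by 0.96 ± 0.25 (log2, adjusted p = 0.00372), while Arr3, cone arrestin, was at 1.88 to 4.9 CPM and 3.76 to 8.7 CPM and did not pass the test (adjusted p = 0.0186). Opn1mw, the middle-wave opsin, had 0 reads in every D22 organoid and 0 to 11 reads at D30, too few to be tested.

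Genes that build the outer segment and its cilium rose in 18 of 23 cases, and 0 fell, with a median of 1.04. The share of risers was 78.3% beside 24% of all genes, and 16 rose with annotated genes alone. Impg1, a proteoglycan of the matrix around photoreceptors, rose from 7.12 to 42.9 CPM, median 21.3, to 112 to 210 CPM, median 159 (log2 2.77 ± 0.36, adjusted p = 4.48e-07), Rdh12, which reduces retinal in the inner segment, by 2.37 ± 0.24, and Pcare, which acts at the site where discs form, by 2.17 ± 0.26. Prph2, the rim protein of the discs, rose from 172 to 475 CPM, median 231, to 700 to 1270 CPM, median 1130. Rp1, a microtubule protein of the axoneme, rose from 819 to 2250 CPM, median 1200, to 3240 to 5950 CPM, median 4270. For these 5 genes the lowest D30 organoid was above the highest D22 organoid.

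**Figure D2:**
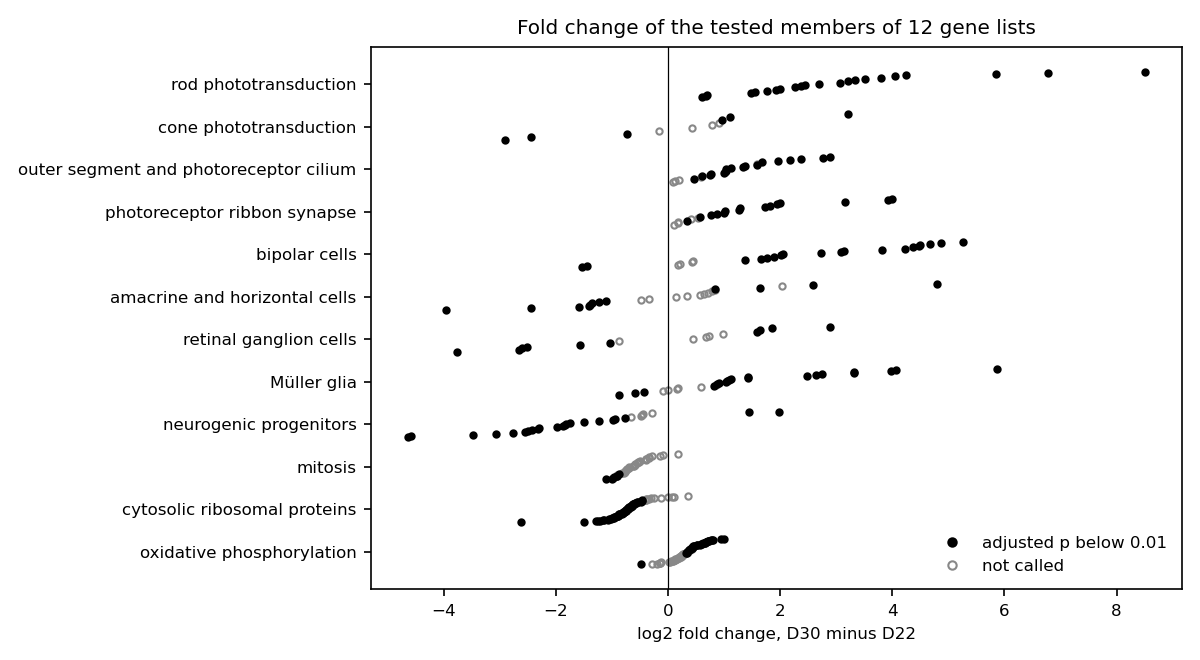
Log2 fold change (D30 minus D22) of each tested member of 12 gene lists, filled where the adjusted p was below 0.01. Rod phototransduction lies to the right of 0 throughout, from 0.60 to 8.51, cone phototransduction is split from -2.91 to 3.20, and the cytosolic ribosomal proteins lie mostly between -1.50 and 0.36 with Rpl17 at -2.62.

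The transcription factors that set up photoreceptors were split, with 5 of 16 higher and 5 lower (4 and 5 with annotated genes alone). This is 31.2% in each direction beside 24% higher and 11.5% lower over all genes. Prdm1, a repressor that keeps young photoreceptors from becoming bipolar cells, fell from 129 to 180 CPM, median 161, to 20.5 to 43.1 CPM, median 28.5 (log2 -2.44 ± 0.15, adjusted p = 1.96e-13). Rxrg, a nuclear receptor of immature cones, fell by 2.23 on the log2 scale, Otx2 by 1.57 and Rorb by 1.51, each with no overlap. Otx2 and Rorb act when cells commit to the photoreceptor fate, and the paper uses OTX2 as a marker of photoreceptors and bipolar cells in late organoids too. The photoreceptor factor Crx and the rod factors Nrl and Nr2e3 did not pass the test: Crx was at 724 to 1040 CPM and 537 to 885 CPM (log2 -0.22 ± 0.10, adjusted p = 0.0974), Nrl at 137 to 331 CPM and 209 to 344 CPM (0.42 ± 0.16, adjusted p = 0.0473) and Nr2e3 at 207 to 715 CPM and 246 to 500 CPM (-0.07 ± 0.24, adjusted p = 0.866).

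Esrrb, a nuclear receptor of rods, had 0 reads in 5 D22 organoids and 21 in the other one, and 121 to 223 reads in D30 organoids (log2 5.34 ± 0.70, adjusted p = 6.12e-07). Mef2c, a factor of rods and of other neurons, was at 3.04 to 8.78 CPM at D22 and 5.49 to 315 CPM, median 139, at D30 (adjusted p = 0.000194), where D30 organoid 6 remained within the D22 range. Samd11, a repressor in rods, rose 2.23 times with overlapping organoids, and Nr1d1, a clock receptor that works with rod factors, rose 1.63 times without overlap. Without D22 organoid 3 the count of risers in this list was 8 in place of 5.

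At the photoreceptor output, a ribbon holds vesicles at a release site that is opened by calcium channels of the Cacna1f type. In the ribbon synapse list 15 of 20 genes rose, or 75% beside 24% of all genes, 0 fell and the median was 1.01. Cplx4, a complexin of ribbon synapses, rose from 6.5 to 30.3 CPM, median 13.6, to 145 to 356 CPM, median 299 (log2 4.0 ± 0.33, adjusted p = 9.03e-11). Cabp4, which tunes the calcium channel, rose from 0.274 to 8.17 CPM to 42 to 80.7 CPM (3.93 ± 0.39), and the channel subunits Cacna1f and Cacnb2 rose by 3.15 ± 0.37 and 1.99 ± 0.17. Slc17a7, the transporter that loads vesicles with glutamate, rose 3.54 times, from 39.1 to 78.2 CPM to 137 to 231 CPM. Bsn, a scaffold of the ribbon, was at 11.8 to 21.7 CPM and 17.5 to 41.1 CPM and did not pass the test (0.54 ± 0.18, adjusted p = 0.0205), but it was called without D30 organoid 3 (adjusted p = 0.00956) or 6 (0.00489), with DESeq2's size factors (0.00942) and with DESeq2's test (0.00487).

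Bipolar cells receive this signal, and ON bipolar cells read it through a receptor cascade that closes the channel encoded by Trpm1. Of 25 bipolar genes 23 were tested, 17 rose and 2 fell, or 73.9% and 8.7% beside 24% and 11.5% of all genes. Their median was 2.05, and the count of risers was 17 with each organoid left out in turn. Trpm1 rose from 0.123 to 4.44 CPM, median 1.46, to 32.8 to 47.7 CPM, median 38.7 (log2 4.47 ± 0.53, adjusted p = 1.16e-07). Vsx1, a factor of cone bipolar cells, went from 0 to 1.42 CPM to 5.99 to 19.8 CPM (4.49 ± 0.59), and Scgn, a calcium sensor of cone bipolar cells, from 0.504 to 1.93 CPM to 8.11 to 29.5 CPM (4.22 ± 0.42). Neto1, a partner of kainate receptors, was at 0 to 1.01 CPM at D22 and 0.721 to 8.93 CPM, median 8.37, at D30 (4.86 ± 0.80). Bhlhe23, a factor needed for rod bipolar cells, had 0 to 3 reads in every D22 organoid, 7 in all, and 13 to 55 at D30, 216 in all (adjusted p = 1.1e-05). Prkca, the protein kinase that marks rod bipolar cells, rose from 22.6 to 48.4 CPM, median 28.5, to 120 to 147 CPM, median 126.

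Against these stood Pcp2 and Rgs11, which are also used as bipolar markers. Pcp2 fell from 69 to 118 CPM, median 101, to 24.2 to 54.7 CPM, median 34.3 (log2 -1.45 ± 0.18, adjusted p = 2.65e-07), and Rgs11, which speeds the shut-off of the G protein in ON bipolar cells, from 47 to 63.6 CPM to 9.99 to 26.1 CPM (-1.54 ± 0.17). Neither overlapped between the timepoints. The summed bipolar level was 362 to 413 CPM at D22 and 675 to 961 CPM at D30.

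**Figure D3:**
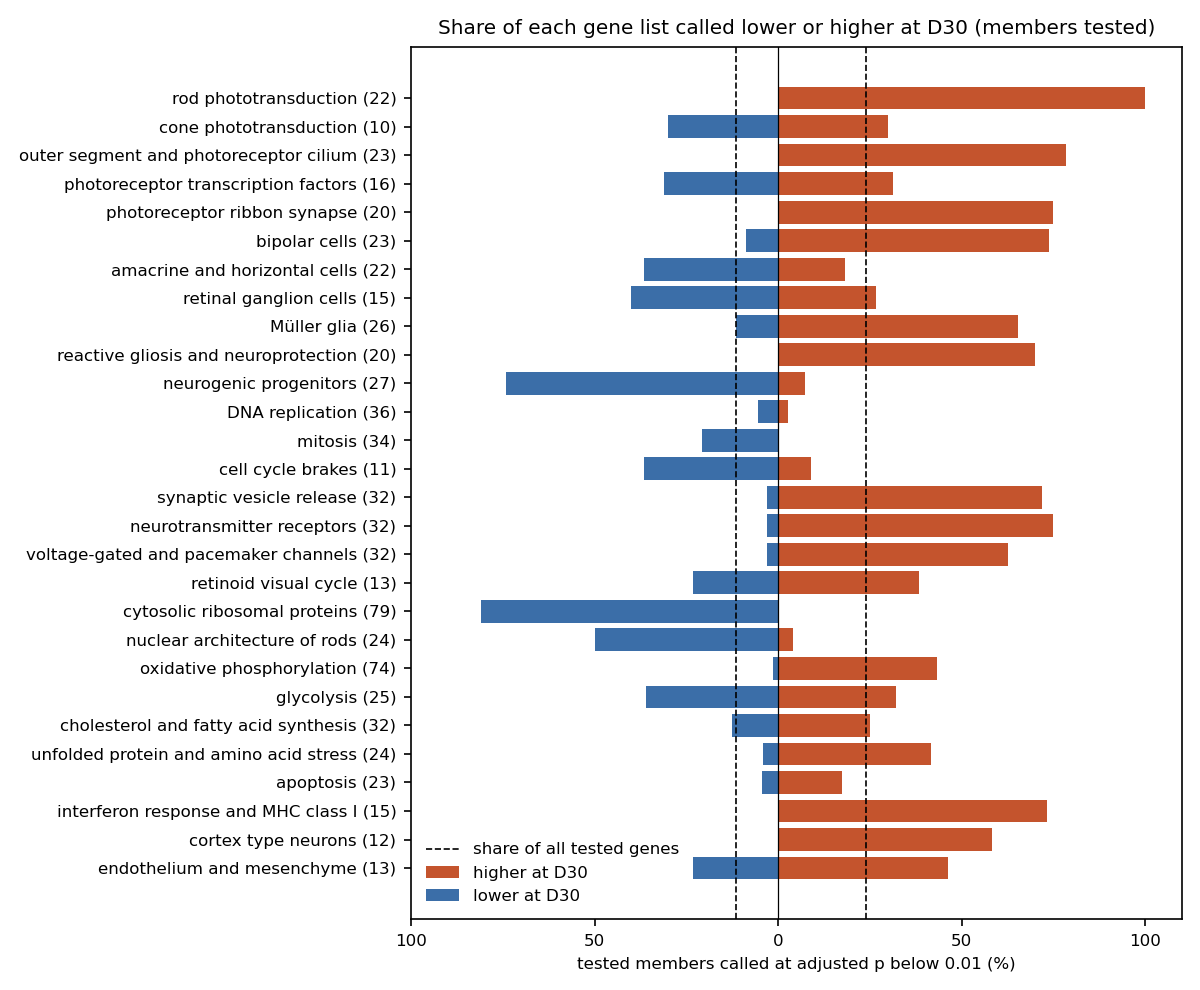
Percent of the tested members of 28 gene lists that were called higher (orange, to the right) or lower (blue, to the left) at D30, with the number tested in brackets; dashed lines mark the shares over all tested genes, 24% and 11.5%. Rod phototransduction reaches 100% higher, and cytosolic ribosomal proteins 81% and neurogenic progenitors 74.1% lower.

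Amacrine and horizontal cells are interneurons that are born early. Of 27 listed genes 22 were tested, 4 rose and 8 fell, or 18.2% and 36.4% beside 24% and 11.5% of all genes. Yet the median log2 change of the tested members was 0.23, beside 0.14 for all annotated genes. The 4 largest falls were those of transcription factors. Onecut1, of horizontal cells, went from 4.75 to 17.2 CPM, median 12.1, to 0.206 to 1.05 CPM, median 0.761 (log2 -3.97 ± 0.33, adjusted p = 9.56e-11), and Barhl2, of amacrine cells, from 18.6 to 23 CPM to 2.14 to 6.05 CPM (-2.45 ± 0.24). Tfap2c and Tfap2b, amacrine factors of the AP-2 family, fell by 1.59 and 1.42 on the log2 scale, the first with no overlap. The genes that rose were Calb1, Gad1, Dab1 and Neurod6. Calb1, a calcium buffer of horizontal cells, rose from 0.473 to 3.84 CPM to 7.9 to 22 CPM (2.59 ± 0.34), while Gad1, which makes GABA, was at 7.05 to 20.6 CPM at D22 and 9.92 to 67.3 CPM at D30, with organoids 5 and 6 within the D22 range. Dab1, an adaptor of reelin signalling, rose 1.79 times with overlap. Neurod6, found in an amacrine subtype and in cortex neurons, was at 0.123 to 7.7 CPM at D22, at 13.3 to 175 CPM in D30 organoids 1 to 5 and at 0.776 CPM in D30 organoid 6 (adjusted p = 0.000732). Without D30 organoid 1 the list had 2 risers.

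Ganglion cells send the axons of the optic nerve, and their markers moved in both directions. Of 17 listed genes 15 were tested, 4 rose and 6 fell, or 26.7% and 40% beside 24% and 11.5% of all genes, so the share of risers was near that of all genes. Their median log2 change was 0.45, beside 0.14 for all annotated genes. Sncg, gamma-synuclein, fell from 18.1 to 52.5 CPM, median 38.6, to 1.37 to 3.94 CPM, median 2.79 (log2 -3.77 ± 0.30, adjusted p = 5.85e-11). The identity factors Pou4f1, Isl2 and Pou4f2 fell by 2.66, 2.61 and 2.52 on the log2 scale with no overlap, from D22 medians of 12.5, 3.2 and 2.47 CPM to D30 medians of 2.28, 0.41 and 0.353 CPM, and Rbpms, an RNA-binding protein of ganglion cells, fell by 1.03. The 4 that rose were Thy1, Nefl, Gap43 and Slc17a6, which other projecting neurons share. Thy1 had a median of 2 CPM at D22 and 18.3 CPM at D30 (2.89 ± 0.61), and Nefl, a neurofilament, medians of 40.1 and 170 CPM (1.85 ± 0.30). Gap43, of growing axons, rose 3.1 times and Slc17a6, a vesicular glutamate transporter, 2.98 times. In D30 organoid 6 the levels of Thy1, at 1.5 CPM, and of the whole list, at 192 CPM, lay below every D22 organoid, while the other 5 D30 organoids had list sums of 506 to 1120 CPM against 360 to 461 CPM at D22. Without that organoid 7 members rose.

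Genes of synapses at large rose in most D30 organoids. In the synaptic vesicle list 23 of 32 genes rose and 1 fell (22 and 4 with annotated genes alone). In the receptor list 24 of 32 tested genes rose and 1 fell. In the channel list 20 of 32 rose and 1 fell (19 and 4 with annotated genes alone). Risers made up 71.9%, 75% and 62.5% of these lists, beside 24% of all genes, and fallers 3.12% of each beside 11.5%. Syn2, a synapsin, rose from 0 to 1.05 CPM to 2.11 to 40.9 CPM (log2 5.56 ± 0.81), Synpr, a vesicle membrane protein, by 3.56 ± 0.46, Syngr3 by 2.34 ± 0.36 and Sv2c by 2.17 ± 0.34. Syt1, the calcium sensor of release, rose from 204 to 384 CPM, median 303, to 539 to 741 CPM, median 641. Syn1 rose 3.76 times and Snap25, of the fusion machinery, 1.52 times. Cplx2, a complexin of conventional synapses, was the member that fell, from 182 to 371 CPM to 85.7 to 169 CPM (-1.28 ± 0.16, adjusted p = 4.16e-07).

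Among receptors, Gabrr1, the rho subunit of GABA receptors on bipolar cells, rose from 0 to 0.419 CPM to 4.97 to 18 CPM, median 9.87 (log2 6.68 ± 0.54, adjusted p = 5.94e-11). Grin2a, the NMDA receptor subunit of mature neurons, rose from 0 to 1.19 CPM to 3.33 to 40.9 CPM, median 23.4 (5.96 ± 0.74), Grm5 by 5.60 ± 0.86 and Gabrb1 by 4.74 ± 0.61. Grik3, a kainate receptor subunit, fell by 1.02. Of the channels, Kcnd2 carries the fast A-type potassium current and Kcnq3 the M current of neurons. Kcnd2 rose by 5.09 ± 0.72, Kcnj14, an inward rectifier, by 4.77 ± 0.30, Kcnq3 by 3.76 ± 0.61 and the calcium channel subunit Cacnb4 by 3.58 ± 0.50. Cacna1h, a T-type calcium channel, fell by 0.97.

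The lowest D30 organoid of Grm5, Grin2a, Gabrb1, Kcnd2, Kcnq3, Cacnb4 and Syn2 was organoid 6 in each case, with 7.1 CPM of Grm5 against 41.3 to 60.2 CPM in the other 5 and 1.77 CPM of Kcnd2 against 14 to 19.9 CPM. Its summed receptor level was 609 CPM, within the 551 to 684 CPM of D22, against 1360 to 2310 CPM in the others. Markers of cortex neurons moved with it: their summed level was 15.4 CPM in D30 organoid 6, 108 to 257 CPM in the other 5 D30 organoids and 21.1 to 49.1 CPM at D22. In that list 12 of 14 genes were tested, 7 rose and 0 fell (3 rose with annotated genes alone, and 2 without D30 organoid 1, 9 without D30 organoid 6, and 3 or 4 without any of D22 organoids 1 to 5 or D30 organoid 2). The 7 are 58.3% of those tested, beside 24% of all genes. Neurod2, of excitatory neurons of the forebrain, was at 0.504 to 2.46 CPM at D22, at 4.29 to 24.4 CPM in D30 organoids 1 to 5 and at 0.166 CPM in organoid 6 (log2 3.41 ± 0.80, adjusted p = 0.00135). Dlx5, of inhibitory forebrain neurons, had 5 reads in all at D22 and 175 at D30 (adjusted p = 0.0037), and Emx2 rose by 2.81 ± 0.64. Without D30 organoid 6 the receptor list had 24 risers and the channel list 20. That organoid was low in both receptors and cortex markers, so leaving it out cannot tell them apart. How much of the receptor and channel rise came from cells of the cortex type was not tested.

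**Figure D4:**
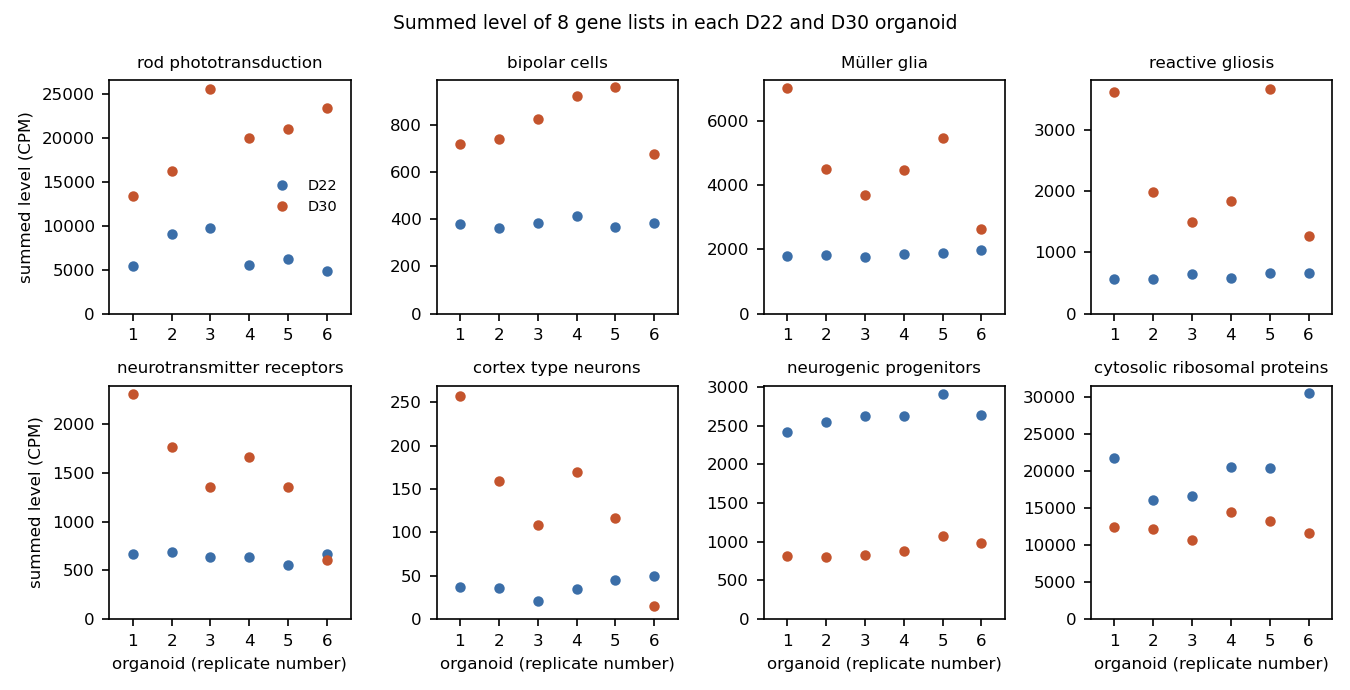
Summed level (CPM, axes from 0) of 8 gene lists in each D22 (blue) and D30 (orange) organoid, by replicate number, which names an organoid and pairs none. D30 organoid 6 has 23400 CPM of the rod list, 609 CPM of the receptor list and 15.4 CPM of the cortex list.

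Müller glia genes rose in 17 of 26 cases and fell in 3, with a median of 1.04. That is 65.4% and 11.5%, beside 24% and 11.5% of all genes. Aqp4, the water channel of glial endfeet, rose from 11 to 33.5 CPM, median 13.2, to 49.9 to 701 CPM, median 220 (log2 3.98 ± 0.45, adjusted p = 5.58e-08). Kcnj10, the channel that carries potassium out of the retina, rose from 4.89 to 8.75 CPM to 20.7 to 142 CPM, median 53.8 (3.32 ± 0.35), and Slc1a3, the glutamate transporter, from 74.9 to 127 CPM to 262 to 793 CPM (2.48 ± 0.20). Abca8a, a lipid transporter, rose by 5.87 ± 0.45 and Cav1, a coat protein of caveolae, by 4.07 ± 0.29. All 5 were higher in each D30 organoid than in any D22 organoid, with D30 organoid 6 the lowest of the D30 organoids for Aqp4 and Kcnj10.

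Other members of the list had smaller fitted changes. Rlbp1, which binds retinal, rose 2.18 times, from 35.7 to 86.1 CPM to 99.9 to 185 CPM, and Glul, glutamine synthetase, 1.76 times, from 138 to 156 CPM to 127 to 394 CPM with overlap. The factors Sox9 and Hes1, which Müller glia share with progenitors, fell by 0.87 and 0.60 on the log2 scale, and Dkk3 by 0.43, all 3 with overlap, and with 1 D22 or D30 organoid left out the number of fallers dropped to 1 in 6 of the 12 cases. It was 1 with DESeq2's size factors and 0 when D22 and D30 organoids alone were fitted. Oligodendrocyte markers rose beside the glial genes, with 4 of 7 tested genes higher and 1 lower. This is 57.1% and 14.3% beside 24% and 11.5% of all genes. Olig1 was at 0 to 0.432 CPM at D22, at 1.74 to 14.5 CPM in D30 organoids 1 to 5 and at 0.111 CPM in organoid 6 (adjusted p = 5.07e-05). Sox10 had 0 to 2 reads per D22 organoid and 0 to 137 at D30 (adjusted p = 0.000109), and Pdgfra, a receptor on precursors of oligodendrocytes and on other glia, rose by 3.12 ± 0.31. Mbp, of myelin, fell by 0.64. The summed level of that list was 58.4 to 69.9 CPM at D22 and 62.4 to 283 CPM at D30, and its part in the glial values was not tested.

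Genes of reactive glia rose as well. Of 26 genes listed for gliosis and the protective signals that go with it, 20 were tested, 14 rose and 0 fell, with a median of 1.93 (13 and 1 with annotated genes alone). Risers were 70% of those tested, beside 24% of all genes. Gfap (chromosome 11, 102887336 to 102900912, GRCm38, minus strand) was at 0.821 to 44.2 CPM, median 4.08, at D22 and at 114 to 2160 CPM, median 644, at D30 (log2 6.41 ± 0.90, adjusted p = 1.69e-06). Every D30 organoid was above every D22 organoid, which the rule for the 10 largest rises required. D30 organoids differed widely among themselves, with 2030 and 2160 CPM in organoids 1 and 5 and 114 CPM in organoid 6. Fgf2, a growth factor released in retinal stress, was far more even: it rose from 1.22 to 7.3 CPM, median 1.99, to 98.7 to 179 CPM, median 140 (5.42 ± 0.32, adjusted p = 8.9e-14). Osmr, the oncostatin M receptor, rose from 0 to 0.599 CPM to 5.38 to 13.4 CPM (5.95 ± 0.60), and Stat3, the factor such receptors activate, from 35.8 to 44.6 CPM to 95.6 to 126 CPM (1.58 ± 0.11). Edn2, endothelin 2, a signal that stressed photoreceptors send to Müller glia, had 3 reads in 1 D22 organoid and 0 in the other 5, and 18 to 80 reads in the D30 organoids, the most in organoid 6 (adjusted p = 7.95e-06). Lcn2, another gene of reactive glia, had 0 to 5 reads at D22 and 1 to 8 at D30 and was not tested.

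Interferon genes, which glia and other cells switch on in inflammation, were low and rose in 11 of 15 tested cases of 24 listed, with 0 lower. Risers were 73.3% of those tested, beside 24% of all genes. Gbp2, Ifit3 and Ifi27 rose by 4.82 ± 0.78, 4.25 ± 0.66 and 2.76 ± 0.67 from D22 medians of 0.0333, 0.136 and 0.291 CPM, which are near the level of 1 read. Ifit2 rose from 0.981 to 4.6 CPM to 5.76 to 29.1 CPM and B2m, the light chain of MHC class I, from 11.6 to 22.6 CPM to 21.3 to 30.8 CPM. Microglia were close to absent: 1 of the 15 genes listed for microglia and blood was tested and it was not called, and the microglial genes Aif1 and Csf1r had at most 5 and 15 reads in any of the 12 organoids.

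The machinery of neurogenesis went down. Of 27 progenitor genes all 27 were tested, 20 fell and 2 rose, with a median of -1.83 beside 0.14 for all annotated genes. Fallers were 74.1% and risers 7.41%, beside 11.5% and 24% of all genes. Foxn4, which primes progenitors for amacrine and horizontal fates, fell from 8.44 to 17.2 CPM, median 12.1, to 0.343 to 0.718 CPM, median 0.424 (log2 -4.64 ± 0.35, adjusted p = 1.54e-11), and Ptf1a, its target in those lineages, from 0.608 to 4.86 CPM to 0 to 0.333 CPM (-4.58 ± 0.61). Fgf15, a growth factor of progenitors, fell by 3.49 and Dll4, a Notch ligand of newborn neurons, by 3.07. Hes5, a target of Notch in progenitors, fell from 10.8 to 33.5 CPM, median 20.4, to 1.05 to 6.85 CPM, median 3.57 (-2.50 ± 0.29), and Sfrp2, a Wnt inhibitor, fell by 2.76. The Notch receptors parted: Notch1 fell 1.99 times, from 88.3 to 98.5 CPM to 36.3 to 60.1 CPM, while Notch2 rose 2.72 times and the ligand Jag1 3.96 times, each with no overlap. The summed level was 2420 to 2910 CPM in D22 organoids and 799 to 1070 CPM in D30 organoids.

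Cell division genes changed far less than progenitor genes. Of 36 DNA replication genes, 33 were not called, 1 rose and 2 fell (1 and 5 with annotated genes alone, and 4 fell without D22 organoid 3 and 1 without D22 organoid 5). Shares of 2.78% higher and 5.56% lower were below the 24% and 11.5% of all genes. Mcm7 and Lig1, of the replicative helicase and of DNA ligation, fell by 0.94 and 0.58, and Rpa1, which coats single-stranded DNA in repair as well as replication, rose by 1.21. Pcna was at 42.5 to 72 CPM and 43.2 to 59.7 CPM (log2 -0.15 ± 0.13), Mcm2 at 10 to 13 CPM and 7.47 to 17.7 CPM (0.04 ± 0.20) and Rrm2 at 8.28 to 22.3 CPM and 8.2 to 21.6 CPM (0.17 ± 0.30), and none of these passed the test. In the mitosis list 7 of 34 genes fell and 0 rose, a share of 20.6% beside 11.5% for all genes, with a median of -0.65. That count was 17 with annotated genes alone, 2 without D22 organoid 5, and 3 or 4 without D30 organoid 2, 3, 4 or 6 and 4 with DESeq2's size factors, so it turned on few organoids and on the scaling. Mki67, the common marker of cycling cells, fell from 171 to 400 CPM, median 218, to 102 to 171 CPM, median 124 (-0.97 ± 0.24, adjusted p = 0.00226). Kif23 and Aurka, of cytokinesis and the spindle, fell by 1.1 and 1.01 with no overlap, Espl1 by 0.99 and Top2a by 0.91. Ccnb1, cyclin B1, was at 7.05 to 18.5 CPM and 7.01 to 16.6 CPM and did not pass (adjusted p = 0.144).

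Brakes on the cell cycle did not rise as a group, with 1 of 11 tested genes higher and 4 lower. The shares were 9.09% and 36.4% beside 24% and 11.5% of all genes. Cdkn2c, an inhibitor of Cdk4 and Cdk6, rose 2.22 times, from 3.01 to 7.32 CPM to 9.04 to 14.6 CPM. Cdkn1a, a target of p53, Btg1 and Ccng2 fell 2.07, 2.04 and 1.93 times, and Cdkn1b, p27, fell 1.36 times with overlapping organoids.

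Cytosolic ribosomal proteins, the protein part of the translation machinery, were lower nearly throughout. Of 79 genes 64 fell and 0 rose, or 81% beside 11.5% of all genes, with a median of -0.74 (72 fell with annotated genes alone, and 58 to 68 with 1 organoid left out). The median fall corresponds to less than 1 on the log2 scale, so it is wide in genes and modest in size. Rpl5 went from 979 to 2430 CPM, median 1420, to 556 to 704 CPM, median 590 (-1.28 ± 0.14, adjusted p = 2.89e-08) and Rpl23a from 29 to 163 CPM to 22.6 to 28.1 CPM (-1.50 ± 0.34). Rpl17 fell by 2.62 from a low D22 median of 15.7 CPM. Ribosomal protein genes have many processed copies in the genome with which they share reads, so single values are uncertain. The summed level was 16000 to 30500 CPM at D22, highest in organoid 6, and 10600 to 14500 CPM at D30. Small nuclear and nucleolar RNAs moved the same way, with 46 of 78 snRNA genes and 50 of 119 snoRNA genes lower and 0 and 1 higher. Over all genes 11.5% were lower and 24% higher. Total RNA libraries hold such short RNAs only in part.

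Called genes also differed in length. The median genomic span was 34.2 kb for genes that rose, 18.1 kb for those that fell and 15.8 kb for those not called, and the median exonic length was 4.85, 4.46 and 3.71 kb. Levels were not scaled for length, and whether length itself made a call easier was not tested. The part of the lower share of reads on no feature at D30, given above, was not tested either.

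Energy metabolism shifted in part. Of 75 genes of oxidative phosphorylation encoded in the nucleus 74 were tested, 32 rose and 1 fell, with a median of 0.34 (20 and 2 with annotated genes alone, where the changes are smaller by the difference in scaling). The shares were 43.2% and 1.35% beside 24% and 11.5% of all genes. Ndufa4 rose from 33 to 56 CPM to 78.3 to 107 CPM (log2 1.00 ± 0.15), Uqcrq by 0.94 ± 0.14, Ndufv1 by 0.80 ± 0.09 and Uqcrc1 by 0.79 ± 0.12, each with no overlap. Cox7a2l, which helps join respiratory complexes, fell by 0.49. The 13 genes of the mitochondrial genome had 0 reads in all 12 organoids, so they were not counted in these files and nothing is known of them here.

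Glycolysis was split, with 8 of 25 tested genes higher and 9 lower (6 and 10 with annotated genes alone). These shares were 32% and 36% beside 24% and 11.5% of all genes. Isoforms differed in some cases. Hk1, the hexokinase bound to mitochondria in neurons, rose from 177 to 210 CPM, median 194, to 483 to 723 CPM, median 662 (log2 1.71 ± 0.10, adjusted p = 1.54e-13), while Hk2, the isoform of growing cells and of photoreceptors, was at 148 to 400 CPM and 105 to 256 CPM and did not pass the test (adjusted p = 0.0584). Of the monocarboxylate carriers, Slc16a1 rose 4.34 times and Slc16a3, which exports lactate, fell 2.42 times. Pfkfb2 and Pfkm rose 2.74 and 1.66 times. The glucose transporters Slc2a1 and Slc2a3 fell by 1.03 and 0.99 on the log2 scale, and Pdk1, which blocks entry of pyruvate into mitochondria, fell by 1.1, from 143 to 284 CPM to 44.8 to 139 CPM. Slc2a1, Slc2a3, Slc16a3 and Pdk1 are known targets of the hypoxia response, whose part in these falls was not tested.

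Lipid synthesis showed a shift of single genes, with 8 of 32 higher and 4 lower (5 and 5 with annotated genes alone). The shares of 25% and 12.5% are close to those of all genes. Without D30 organoid 6 the risers numbered 14, without D30 organoid 5 there were 5, and the fallers were 2 without D22 organoid 1, 4 or 5 or D30 organoid 2 or 6, with DESeq2, with either other filter and with D22 and D30 organoids alone. Scd1, a desaturase, had a median of 13.6 CPM at D22 and 101 CPM at D30 (log2 2.55 ± 0.36), and Fads2, Pmvk and Acaca rose 2.49, 2.07 and 1.71 times. The regulator Srebf2 fell by 0.75 on the log2 scale, Lss by 0.46 and Elovl6 by 0.39.

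In the retinoid list 5 of 13 tested genes rose and 3 fell (3 and 3 with annotated genes alone), or 38.5% and 23.1% beside 24% and 11.5%. Rdh8, the retinal reductase of the outer segment, rose from 6.12 to 13.4 CPM to 35.2 to 58.6 CPM (log2 2.41 ± 0.19, adjusted p = 3.06e-11), Dhrs3 1.86 times and Retsat 1.79 times. Ttr, which carries retinol and thyroxine and is made in pigment epithelium and choroid plexus, was at 0.0613 to 92.5 CPM at D22 and at 19.9 to 2630 CPM at D30, with 2630 and 2460 CPM in organoids 2 and 6 (4.90 ± 1.05). Crabp1, which binds retinoic acid, fell from 44.7 to 59.3 CPM, median 49.8, to 8.46 to 13.1 CPM, median 11.5, and Lrat, of the pigment epithelium, and Rbp4 fell by 1.54 and 1.2. Pigment markers were few: 6 of 12 were tested, 2 rose (0 to 2 with 1 organoid left out, and 0 with annotated genes alone) and 2 fell. Each direction held 33.3% of those tested, beside 24% higher and 11.5% lower over all genes. Tyrp1 rose by 2.82 ± 0.82 (adjusted p = 0.00861) and Mitf 1.82 times, while Dct, another pigment enzyme, fell from 83.4 to 216 CPM, median 142, to 9.99 to 49 CPM, median 35.8.

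Rods of nocturnal mammals turn their nucleus inside out after birth, and genes of chromatin and the nuclear envelope were listed for it. Of 24, 12 fell and 1 rose, or 50% beside 11.5% of all genes. Ezh2, the methyltransferase of Polycomb, fell from 276 to 327 CPM, median 291, to 118 to 135 CPM, median 122 (log2 -1.26 ± 0.08, adjusted p = 1.55e-13). Hmga1, Dnmt3b and Hmgb2, of dividing and young cells, fell by 1.45, 1.36 and 1.31, each with no overlap, and Lbr, the lamin B receptor, fell by 0.47 with overlap. Lmna, lamin A, was the gene that rose, 1.91 times, with 2 risers without D22 organoid 2 or D30 organoid 6.

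Stress and death genes changed in smaller numbers. In the unfolded protein and amino acid list 10 of 24 genes rose and 1 fell (7 and 1 with annotated genes alone). That is 41.7% and 4.17% beside 24% and 11.5% of all genes. Slc7a11, the cystine carrier, rose from 2.21 to 6.76 CPM to 10.8 to 59.6 CPM (log2 2.46 ± 0.32), Phgdh, which starts serine synthesis, by 2.12 ± 0.37, Atf3 by 1.91 ± 0.28 and Asns 1.63 times. Hspa5, the main chaperone of the endoplasmic reticulum, rose from 488 to 610 CPM to 716 to 849 CPM, and Ddit3, its death-linked factor, 1.59 times with overlap. Ddit4 fell by 1.06. In the apoptosis list 18 of 23 tested genes were not called, 4 rose and 1 fell (4 and 6 with annotated genes alone), and the fallers were 2 without D22 organoid 2. The shares of 17.4% and 4.35% were below the 24% and 11.5% of all genes. Hrk, a killer protein of neurons, rose 2.92 times and Bcl2, a protector, 2.24 times, both with overlap. Cycs, cytochrome c, and Xiap rose 1.7 and 1.61 times without overlap, and Casp2 fell 1.58 times.

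Genes of connective tissue and vessels were at low levels and split, with 6 of 13 tested higher and 3 lower (5 and 3 with annotated genes alone). These are 46.2% and 23.1% beside 24% and 11.5% of all genes. Dcn, a proteoglycan of fibroblasts, rose from 0.0613 to 2.3 CPM to 2.49 to 33.4 CPM (log2 4.12 ± 0.84), Col1a2 by 3.20 ± 0.50 and Acta2 by 2.98 ± 0.70. Col3a1 rose by 3.46 ± 0.90, with 107 CPM in D30 organoid 5 against 2.77 to 37.7 CPM in the others, and Col1a1 by 2.2 ± 0.61. Among genes of vessels, Cldn5 had 3 to 34 reads in D22 organoids and 0 to 3 in D30 organoids (adjusted p = 3.25e-06), Kdr, which retinal progenitors and horizontal cells also express, fell 1.48 times and Pecam1 was not called (adjusted p = 0.0691). Myh3, an embryonic muscle myosin, fell by 1.77. Pou5f1, of pluripotent cells, had 1 to 29 reads at D22 and, at D30, 0 in 5 organoids and 8 in organoid 6 (adjusted p = 0.00079).

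Some called genes were near silence at 1 timepoint. Of the genes that rose, 28 had at most 3 reads in every D22 organoid, and of those that fell 8 had at most 3 in every D30 organoid. Each passed the filter on low counts through other timepoints and was picked for its call, so the calls add no support. How many of all tested genes lay at this floor was not counted. The 28 include Pga5, with 366 reads in D30 organoid 6 and 0 in every other D30 organoid. Tnnt2, a troponin of heart muscle, had 12 reads over all D22 organoids and 72 to 301 in each D30 organoid, 1206 in all. Sox21, a factor of neural cells, had 2 reads over D22 and 24 to 159 per D30 organoid. Shh, a signal of ganglion cells, had 1 over D22 and 12 to 43 per D30 organoid. Timp4 and Wdr49 had 0 reads in all D22 organoids and 10 to 120 and 10 to 116 per D30 organoid. In contrast Gjc3, a connexin of oligodendrocytes, had 0 reads at D22, 10 to 247 in D30 organoids 1 to 5 and 0 in D30 organoid 6. Of those that were lost, Cyyr1 had 7 to 44 reads at D22 and Pla2g2f, a secreted phospholipase, 14 to 82. These genes of onset and loss were picked after their values were seen.

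D25 organoids, sampled between the timepoints, show when the named genes moved, as a description without a test. Gnat1 was at 9.63 ± 2.86 CPM (SD, n = 6) at D25, closer to D22 than to D30, and Gfap was at 83.3 ± 50.2, Aqp4 at 39.2 ± 18.8 and Fgf2 at 15.6 ± 3.26. Edn2 was at 0.0506 ± 0.0977 and Esrrb at 0.648 ± 0.316. Of the rod and outer segment genes, Sag was at 3400 ± 464, Prph2 at 631 ± 63.4 and Rcvrn at 171 ± 21 CPM. Pde6b had a D25 level of 1040 ± 93.2 CPM beside a D30 median of 1100. Of the progenitor genes, Hes5 was at 7.04 ± 2.51, Foxn4 at 3.41 ± 2.11 and Ptf1a at 0.118 ± 0.128 CPM. Of the cone and young photoreceptor genes, Gngt2 was at 283 ± 53.4 CPM, Prdm1 at 107 ± 23.6 and Rxrg at 10.6 ± 1 CPM at D25.

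**Figure D5:**
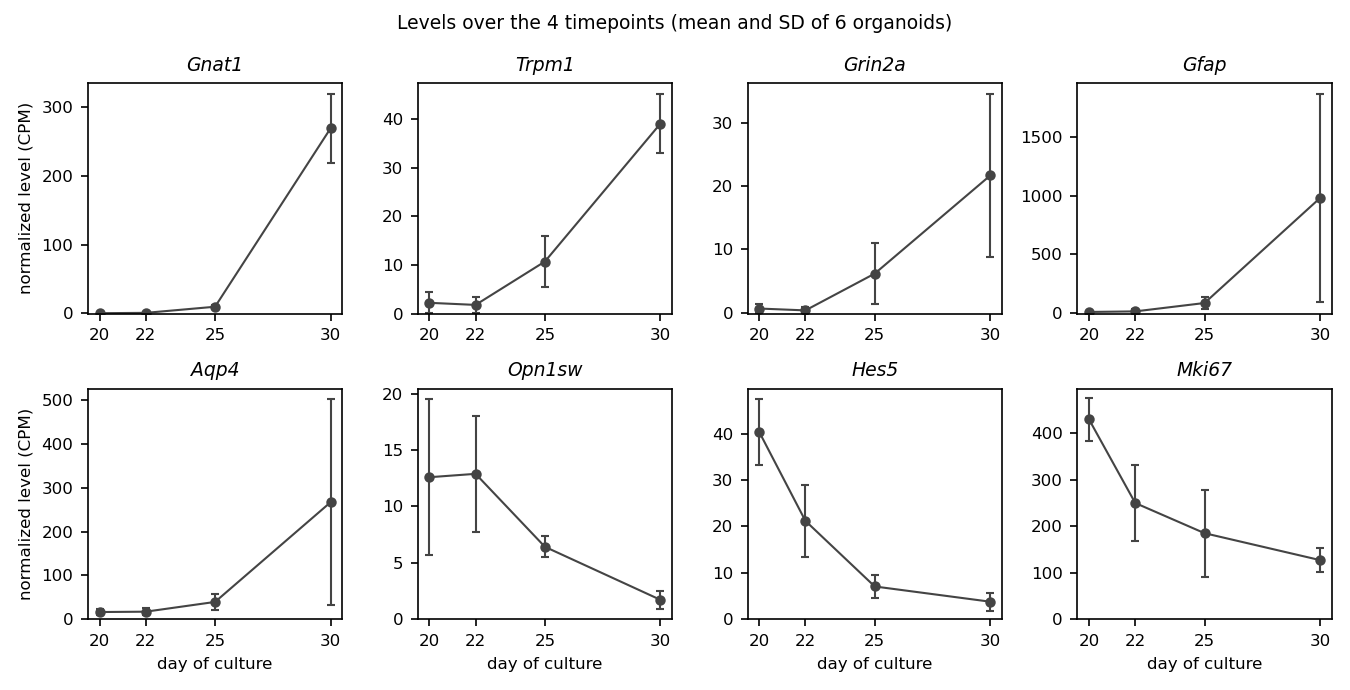
Mean normalized level (CPM) and SD of 6 organoids for 8 genes at D20, D22, D25 and D30, against the day of culture. Gnat1 is at 9.63 CPM at D25 and Gfap at 83.3 CPM, while Hes5 is at 7.04 CPM at D25; the wide bars of Gfap and Aqp4 at D30 reflect 114 to 2160 and 49.9 to 701 CPM among organoids.

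Some of the calls above held with all 12 organoids only by a narrow margin, and all of these kept their direction. With 1 organoid left out, the call was lost for Lig1 and Mki67 without D22 organoid 5 (adjusted p = 0.0156 and 0.015), for Lbr without D22 organoid 6 (0.0103), for Col3a1 without D30 organoid 5 (0.0213), for Dlx5 without D22 organoid 1 or D30 organoid 1 (up to 0.0119), for Gad1 without D22 organoid 5 or D30 organoid 1 or 3 (up to 0.0119) and for Gnat2 without D22 organoid 4 or D30 organoid 4 or 6 (up to 0.0172). More omissions ended it for Dab1, Slc17a6, Hes1, Rbpms, Mitf and Col1a1, 6 of 12 each, with adjusted p up to 0.0157, 0.0227, 0.0177, 0.0227, 0.0254 and 0.0339. For Espl1 and Retsat 7 of 12 did, for Rbp4, Elovl6 and Tyrp1 8, for Top2a and Lss 9 and for Dkk3 10, with adjusted p of at most 0.03, 0.0212, 0.0278, 0.0211, 0.0237, 0.0352, 0.046 and 0.0368.

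The size of some changes also moved by more than 1.5 times (linear scale) without 1 organoid. Without D22 organoid 6 the log2 change of Gnat1 was 9.49 in place of 8.51, that of Gfap 7.62 in place of 6.41, Mlc1 7.05 in place of 6.01, Grm5 6.24 in place of 5.60, Gabrb1 5.60 in place of 4.74, Ttr 5.55 in place of 4.90, Emx2 3.76 in place of 2.81 and Ifi27 3.39 in place of 2.76. Without D22 organoid 2 it was 6.89 in place of 5.96 for Grin2a, 6.86 in place of 6.07 for Mt3 and 4.78 in place of 4.12 for Dcn, without D22 organoid 3 it was 5.21 in place of 4.49 for Vsx1, without D22 organoid 5 it was 3.57 in place of 2.82 for Tyrp1, without D30 organoid 4 it was -8.20 in place of -6.85 for Mybpc1, and without D30 organoid 5 it was 2.63 in place of 3.46 for Col3a1, whose call was then lost as given above. For Esrrb, 5430419D17Rik, Slc39a12 and Osmr without D22 organoid 6, Neto1 without D22 organoid 3, Gabrr1 without D22 organoid 2, Gbp2 without D22 organoid 5 and Ptf1a without D30 organoid 6, the organoids left in the lower group had at most 3 reads each and no fold is given.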

How the data were processed

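Total RNA of individual mouse retinal organoids was depleted of ribosomal RNA and sequenced single-end from strand-specific libraries. The submitters' processing notes and the study's methods name bcl2fastq 2.20, cutadapt 1.5, FastQC 0.11.2, HISAT2 with the mouse genome GRCm38 (mm10), SAMtools 1.1, StringTie 1.3.3 for loci outside the annotation, and HTSeq 0.6.1. The authors deposited raw read counts per annotated gene and per assembled locus, 1 file per organoid, without normalization. The strand setting of the counting is not given in the sources used here, so overlapping antisense genes are uncertain. Rows for reads on no feature were kept out of library sizes (they are 37.5 to 48.95% of reads with 1 alignment in these libraries, and reads with several alignments are left out of that share).

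Samples were grouped by the timepoint in their labels. Features whose normalized count averaged 10 or more entered edgeR 4.0.16 (R 4.3.3), with TMM scaling and a quasi-likelihood fit over all 24 organoids with timepoint as the sole term, and D30 was contrasted with D22. P-values were adjusted by Benjamini-Hochberg over all 46949 features tested, at a threshold of 0.01. The standard error is the fold change divided by the square root of F. The script was tested on simulated data. Alternatives were DESeq2 1.42.0, its size factors, annotated genes alone, other filters, the 12 organoids alone, replicate number as a block, thinning to equal depth, a test against a 2-fold change and leaving out each organoid.

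Genes are named by 3 rules: the 10 largest rises and 10 largest falls among called genes with at least 100 normalized counts on average and no overlap between timepoints, fixed anchors of each list, and up to 4 called members of each list with the largest change in each direction. The genes of onset and loss are the exception stated with them. The members, lists and rules were chosen with earlier results of these data known. All p-values measure the spread between organoids of 1 experiment. Some genes are not reported here. Promoter windows come from RefSeq and gene coordinates from the annotation of GRCm38.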

Additional observations from a re-analysis of the deposited data

Results flagged for a closer look

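In 36 of 480 groups of 6 organoids (416 of named genes and 64 of lists), 1 organoid lay apart from the other 5 by Dixon's criterion. Chance alone meets it in about 1 in 20 groups of independent, normally distributed values. CPM values of low genes are skewed and the groups share organoids, so the 36 cannot be read against that rate. D22 organoid 6 was the organoid apart in 11 of the 36 and D30 organoids 1 and 6 in 5 each. Values are CPM, with the range of the other 5 organoids of the same timepoint.

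D22 organoid 1 had Pde6c at 42 (27.8 to 30.7) and Edn2 at 0.184 (0 in the others). D22 organoid 2 had Thy1 at 4.88 (1.78 to 2.53) and Gabrr1 at 0.419 (0 to 0.133). D22 organoid 3 had Neto1 at 1.01 (0 to 0.209) and Stat3 at 44.6 (35.8 to 38.5). D22 organoid 5 had Gbp2 at 1.01 (0 to 0.135) and the summed list neurotransmitter receptors at 551 (640 to 684). D22 organoid 6 had Gnat1 at 2.53 (0.0613 to 0.558), Esrrb at 1.4 (0 in the others), Pou4f2 at 4.79 (1.8 to 2.58) and Aqp4 at 33.5 (11 to 19). The same organoid had Gfap at 44.2 (0.821 to 15.4), Osmr at 0.599 (0 to 0.203), Gabrb1 at 5.52 (0.479 to 1.26) and Emx2 at 4.12 (0.338 to 0.935). The same organoid had Col1a2 at 6.72 (1.04 to 3), 5430419D17Rik at 0.732 (0 to 0.0675) and Slc39a12 at 0.399 (0 to 0.0684). D30 organoid 1 had Kif23 at 17.9 (9.59 to 12.5), Ccnb1 at 16.6 (7.01 to 8.29), Hmgb2 at 25.2 (15.3 to 18.4) and Slc7a11 at 59.6 (10.8 to 27.7). The same organoid had the summed list pluripotent cells and lens at 9.14 (0.457 to 1.93). D30 organoid 3 had Gucy2f at 73.8 (29.6 to 44.5) and Fgf15 at 3.3 (1.39 to 1.9). D30 organoid 4 had Mybpc1 at 0.619 (0 to 0.232) and Myh7b at 7.16 (2.06 to 3.43). D30 organoid 5 had Jag1 at 25.7 (13.8 to 15.7), Col3a1 at 107 (2.77 to 37.7) and the summed list endothelium and mesenchyme at 433 (232 to 282). D30 organoid 6 had Pou4f2 at 1.11 (0.174 to 0.522), Grm5 at 7.1 (41.3 to 60.2), Kcnd2 at 1.77 (14 to 19.9) and Cldn5 at 0.166 (0 to 0.0612). The same organoid had Pou5f1 at 0.443 (0 in the others).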

How the results depend on the processing

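Over all annotated genes, 3893 were higher and 1877 lower at D30. With annotated genes alone 3191 were higher and 2980 lower, and against a change of 2-fold 1101 were called, 888 higher and 213 lower, fewer by the construction of that test. Every other alternative gave counts within 1.5 times of these, and leaving out 1 organoid gave 3481 to 4120 higher and 1622 to 1856 lower. Of the 208 genes named under the rules, 197 were called, 175 kept direction and side of the threshold in every alternative other than the 2-fold test, and 21 lost the call without some organoid. Nr2e3 (-0.07, not called) was at 0.00 with DESeq2's size factors and with DESeq2's test, and at -0.20 to 0.17 with 1 organoid left out. Mcm2 (0.04, not called) was at -0.11 with annotated genes alone and at -0.09 to 0.15 with 1 organoid left out. The cause of these changes was not tested.

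Replicate numbers did not pair the organoids: deviations of organoids with the same number correlated at -0.039 to 0.081, and 2 of 6 matched their own number best. With replicate number as a block, 3747 genes were higher and 1826 lower. Depth limits genes near 3 reads, and thinning all libraries to equal depth gave 3856 higher and 1871 lower.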
